A study of Mus musculus with 3 samples.

Results

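The interferon receptor to ISGF3 signalling genes are 9 mouse genes that carry the type I interferon signal from the cell surface to the nucleus or restrain it: Ifnar1, Ifnar2, Jak1, Tyk2, Stat2, Irf9, Irf7, Irf1 and Socs1. They were taken by symbol from the 32285 genes counted, and all 9 were found. Their levels were followed across retinal cell classes at 3 ages, to describe which classes carry the genes needed to respond to type I interferon. The data are single-cell RNA-seq of C57BL/6JRj mouse retina after enrichment with beads against CD31, the endothelial surface protein encoded by Pecam1. The groups were young (3 months), adult (12 months) and old (23 months), with no mutation or treatment in any of them, and each was 1 library made from the pooled retinas of 2 mice. A difference between cell classes could therefore be tested over 3 libraries, whereas a difference between ages could not be tested and is given with intervals that cover counting error only.

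Type I interferons bind a receptor of 2 chains, IFNAR1 and IFNAR2, which hold the kinases TYK2 and JAK1. The kinases phosphorylate STAT proteins, among them STAT2, which joins IRF9 in the complex ISGF3, and ISGF3 binds the interferon-stimulated response element (ISRE) in the promoters of interferon-stimulated genes. IRF7 is itself interferon-induced and amplifies interferon production, IRF1 is an activator of interferon-stimulated genes, and SOCS1 is an inducible inhibitor of the JAK kinases.

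After filtering, 1705 young, 1957 adult and 1701 old cells were kept from library totals of 16577026 to 19977238 unique molecular identifiers (UMIs, each a counted RNA molecule). The pairs of libraries shared between 0 and 3 cell barcodes. Clusters were named from marker genes, with all 9 genes kept out of the clustering, and 7 classes held at least 30 cells in every library: endothelial-like (445, 428 and 403 cells in young, adult and old), pericyte-like (171, 130 and 102), smooth muscle-like (38, 37 and 37), Müller glia-like (175, 214 and 210), rod-like (166, 321 and 235), cone-like (70, 102 and 72) and bipolar-like (200, 208 and 167), hereafter called by the class name alone. The 10 endothelial markers summed to 12268, 12518 and 12349 UMIs per 1000000 UMIs of the class (CPM) in young, adult and old endothelial cells. The same sum was used as a rough guide to endothelial RNA in each other class. It was 4.93 to 6.17% of the endothelial level in pericytes and 5.17 to 5.91% in Müller glia. In smooth muscle, rods, cones and bipolar cells it was at most 0.879%. The single markers were uneven in Müller glia, with 1, 3 and 1 of the 10 at 0 in young, adult and old. The highest single marker there was at 15.3 to 17.4%. A member at or near the summed shares was read as possible background in that class, and its source was not tested.

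Endothelial cells had higher levels of most of these genes than any other class compared. Of the 8 members with enough counts to be tested, 6 were higher in endothelial cells than in pericytes, where 23.1% of all 11106 genes were higher, and 1 was lower, where 19% of all genes were. Against smooth muscle, 6 were higher and 1 was lower (22.1% and 16.5% of all genes), and against Müller glia 6 were higher (34.4%). Against rods 7 were higher (37.0%), and against cones and bipolar cells 8 were higher (36.8% and 39.2%). The median log2 difference of the 8 members was 1.37 against pericytes, 2.26 against smooth muscle, 1.34 against Müller glia, 3.82 against rods, 4.60 against cones and 3.55 against bipolar cells, while that of all genes was between 0.01 and 0.18. All calls between classes are from edgeR's quasi-likelihood test on UMIs summed per class and library, with library as a block and Benjamini-Hochberg adjustment over all genes at 0.05.

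**Figure D1:**
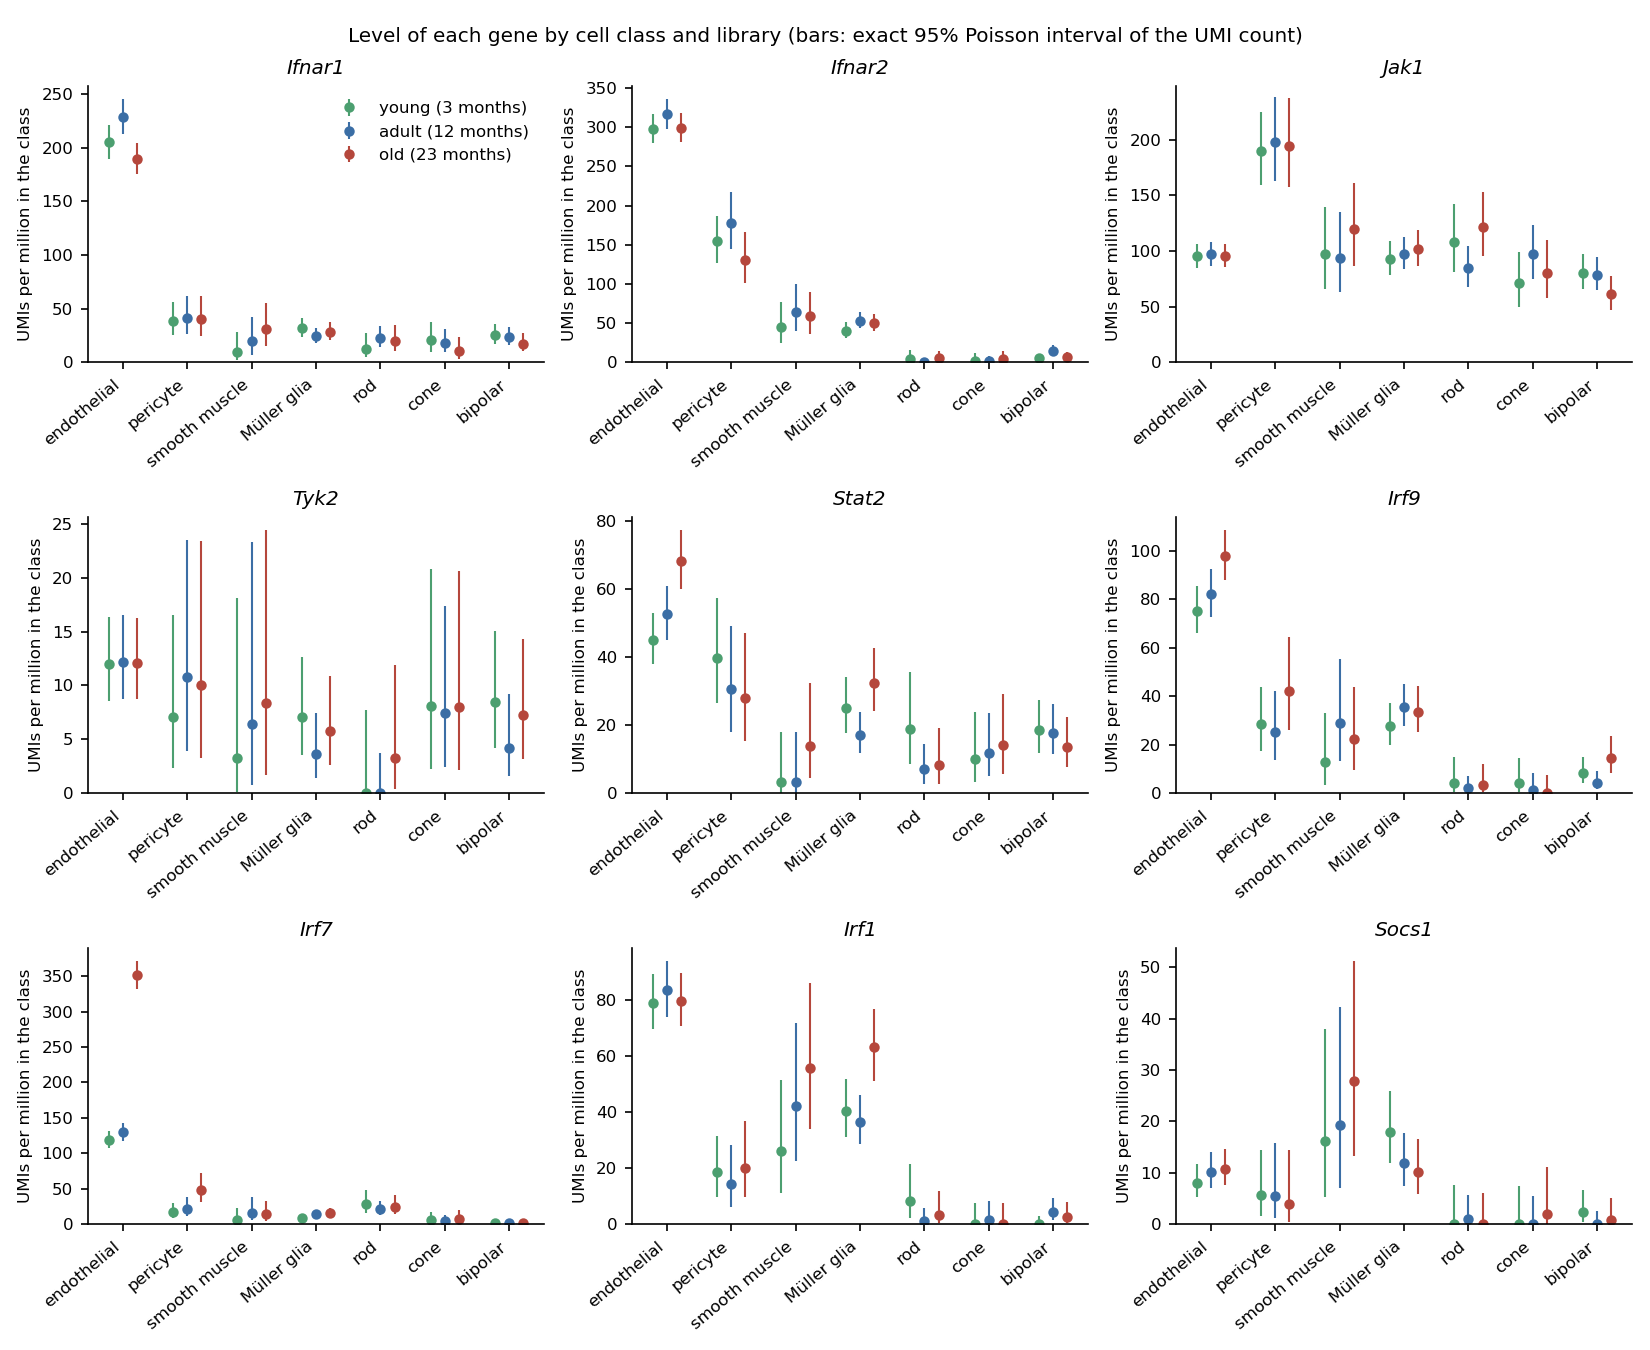
Level of the 9 genes in CPM (vertical axis) in 7 retinal cell classes (horizontal axis), with 1 point for each library and bars for the exact 95% Poisson interval of its UMI count. Ifnar1, Ifnar2, Irf9 and Irf7 are highest in endothelial cells in every library, Jak1 is highest in pericytes, Socs1 reads highest in smooth muscle or Müller glia, and old endothelial cells stand apart for Irf7 at 351 CPM.

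Both receptor chains were highest in endothelial cells, and of the pair only Ifnar2 passed the test as higher in every vessel class than in rods, cones and bipolar cells. Ifnar1, the chain that holds TYK2, was at 205, 229 and 190 CPM in young, adult and old endothelial cells. It was at 38.3, 41.4 and 40.1 CPM in pericytes and at 31.5, 24.2 and 28.0 CPM in Müller glia. No library of another class came near the endothelial level, and the endothelial minus pericyte difference was 2.55 on the log2 scale (SE 0.16, edgeR adjusted p = 4.5e-20). The remaining classes lay between 9.8 and 30.6 CPM, and the difference of pericytes from Müller glia (0.41, SE 0.23, edgeR adjusted p = 0.13) missed the threshold, as did those between neighbours among bipolar cells, smooth muscle, rods and cones. Ifnar1 in Müller glia was 10.6 to 15.3% of its endothelial level in the same library, within the range of single endothelial markers there, the highest of which reached 15.3 to 17.4%.

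Ifnar2, the chain that holds JAK1, was at 298, 316 and 299 CPM in endothelial cells and at 155, 178 and 130 CPM in pericytes. Smooth muscle followed with 45.5, 64.7 and 58.5 CPM, and Müller glia with 40.5, 53.0 and 49.6 CPM. Rods held 2, 0 and 3 Ifnar2 UMIs in the 3 libraries and cones 1, 1 and 2, so a total of 5 UMIs was found in 722 rods and of 4 UMIs in 244 cones. The endothelial level exceeded that of pericytes by 1.14 on the log2 scale (SE 0.12, edgeR adjusted p = 1.3e-11), that of rods by 7.02 (SE 0.28, edgeR adjusted p = 1.1e-29) and that of cones by 7.18 (SE 0.29, edgeR adjusted p = 4.1e-29). The sizes of the last 2 rest on these few UMIs: for rods the difference was 6.11 without the adult library and 7.81 without the old, and for cones it was 5.43 after thinning every cell to 1000 UMIs. The 0 of 993266 UMIs in adult rods allows up to 3.02 CPM with a floor of 3 counts, and the exact 95% upper limit was 3.71 CPM. Pericytes were above smooth muscle (1.34, SE 0.23, edgeR adjusted p = 5.1e-06), and Müller glia were above bipolar cells (2.66, SE 0.25, edgeR adjusted p = 5.7e-14), which were at 5.4, 14.1 and 6.4 CPM. Müller Ifnar2 was 13.6, 16.7 and 16.6% of its endothelial level in young, adult and old. The highest single endothelial marker there was at 17.3, 15.3 and 17.4%, and the part of endothelial RNA in this level was not tested. In rods and cones Ifnar2 was 0 to 1.65% of its endothelial level on 0 to 3 UMIs a library, where the endothelial markers were at 0.273 to 0.707% in rods and 0.179 to 0.348% in cones, while Ifnar1 was 5.29 to 10.4% of its own.

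Both receptor genes lie on chromosome 16 (GRCm38), Ifnar2 at chr16:91372783-91405589 and Ifnar1 at chr16:91485238-91507441, both on the plus strand. Il10rb, the second chain of the interleukin-10 and interferon-lambda receptors, starts 574 bases after Ifnar2, and Ifngr2 lies 39.63 kb beyond Ifnar1. Il10rb was at 209, 214 and 241 CPM in endothelial cells, at 51.1, 57.6 and 58.1 CPM in pericytes and at 0 in all 3 cone libraries. The annotated gene Gm21970 spans part of both Ifnar2 and Il10rb on the same strand, sharing 13869 bases with Ifnar2. How reads in the shared stretches were counted was not tested. The 250 bases before the RefSeq start site (GRCm38.p6) of both receptor genes are shown because the chains of 1 receptor had unlike levels in the photoreceptors relative to endothelial cells. They hold 54.0% G and C in Ifnar2 and 65.6% in Ifnar1, with a median of 52.4% over 32851 RefSeq windows. No part is in capitals, and no motif is reported.
Ifnar2, chr16:91372533-91372782, plus strand: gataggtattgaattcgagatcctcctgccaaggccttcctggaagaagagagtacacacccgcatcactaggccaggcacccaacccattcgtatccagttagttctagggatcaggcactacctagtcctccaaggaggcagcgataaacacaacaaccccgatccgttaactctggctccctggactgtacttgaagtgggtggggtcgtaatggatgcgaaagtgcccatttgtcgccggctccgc
Ifnar1, chr16:91484965-91485214, plus strand: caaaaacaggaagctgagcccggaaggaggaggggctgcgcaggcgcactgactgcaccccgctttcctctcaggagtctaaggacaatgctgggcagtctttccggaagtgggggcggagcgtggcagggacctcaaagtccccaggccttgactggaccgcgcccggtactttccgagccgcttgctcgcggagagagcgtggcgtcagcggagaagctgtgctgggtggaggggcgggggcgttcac

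Jak1 did not follow the order of the receptor chains. It was at 95.004, 97.1 and 95.4 CPM in endothelial cells and at 190, 198 and 194 CPM in pericytes, the only tested member higher in pericytes than in endothelial cells (endothelial minus pericyte -0.85, SE 0.12, edgeR adjusted p = 3.7e-08). Rods, which held almost no Ifnar2, had 108, 84.6 and 122 CPM of Jak1. These values lay on either side of the endothelial ones and missed the threshold (-0.02, SE 0.14, edgeR adjusted p = 0.93), as did Müller glia with 92.5, 97.3 and 102 CPM (0.04, SE 0.11, edgeR adjusted p = 0.77) and smooth muscle with 97.5, 93.7 and 120 CPM (-0.08, SE 0.17, edgeR adjusted p = 0.78), where the difference was -0.70 after thinning to 1000 UMIs a cell and again missed the threshold. Cones with 71.2, 96.9 and 80.4 CPM were below endothelial cells by 0.43 (SE 0.15, edgeR adjusted p = 9.4e-03), a call lost without the young library (edgeR adjusted p = 0.081) and with DESeq2 (adjusted p = 0.053). Bipolar cells had the lowest mean, with 80.5, 78.3 and 60.9 CPM (endothelial minus bipolar 0.67, SE 0.12, edgeR adjusted p = 2.8e-06).

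Tyk2 was sparse, with 39, 41 and 44 UMIs in endothelial cells, or 12.0, 12.2 and 12.1 CPM, and failed the filter on low counts. Rods held 0, 0 and 2 UMIs of it, whereas cones read 8.1, 7.5 and 8.0 CPM. In the fit without the filter, endothelial cells were above rods by 3.67 (SE 0.67, edgeR adjusted p = 2.0e-07), above Müller glia by 1.31 (SE 0.33, edgeR adjusted p = 2.3e-04) and above bipolar cells by 1.22 (SE 0.34, edgeR adjusted p = 8.7e-04). The differences from pericytes, smooth muscle and cones missed the threshold. Nearly all of the gene on chromosome 9 overlaps an antisense transcript, 1700084C06Rik, over 24326 bases.

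The ISGF3 genes were again highest in endothelial cells, with pericytes and Müller glia next. Stat2 was at 44.9, 52.5 and 68.2 CPM in young, adult and old endothelial cells, at 39.7, 30.6 and 28.1 CPM in pericytes and at 25.1, 17.0 and 32.5 CPM in Müller glia. The young pericyte and young endothelial values lie close together, and the endothelial excess over pericytes was 0.88 (SE 0.22, edgeR adjusted p = 7.7e-04). Against Müller glia it was 1.23 (SE 0.17, edgeR adjusted p = 1.1e-08), and the difference between pericytes and Müller glia missed the threshold (0.35, SE 0.27, edgeR adjusted p = 0.27). Rods, cones and smooth muscle were between 3.2 and 18.8 CPM, bipolar cells between 13.6 and 18.4 CPM.

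Irf9, the DNA-binding subunit, was at 75.3, 82.2 and 97.9 CPM in endothelial cells, at 27.6, 35.5 and 33.7 CPM in Müller glia and at 28.4, 25.2 and 42.1 CPM in pericytes. Every endothelial library was above every library of the other classes, and the excess was 1.44 over Müller glia (SE 0.15, edgeR adjusted p = 9.9e-13) and 1.60 over pericytes (SE 0.20, edgeR adjusted p = 1.2e-09). Smooth muscle read 13.0, 29.1 and 22.3 CPM, and bipolar cells 8.4, 4.2 and 14.5 CPM. Irf9 was nearly missing from photoreceptors, with 6 UMIs over all rods and 3 over all cones. Old cones held 0 of 497341 UMIs, which allows up to 6.03 CPM with a floor of 3 counts, and the exact 95% upper limit was 7.42 CPM. In Müller glia Irf9 was 34.5 to 43.2% of its endothelial level and Stat2 32.3 to 55.8%, above every single endothelial marker there.

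The same stretch is shown for Stat2 (gene at chr10:128270559-128292849, plus strand) and for the first RefSeq start of Irf9 (gene at chr14:55603571-55610030, plus strand), because these members had endothelial old to young ratios with an interval above 1.
Stat2, chr10:128270248-128270497, plus strand: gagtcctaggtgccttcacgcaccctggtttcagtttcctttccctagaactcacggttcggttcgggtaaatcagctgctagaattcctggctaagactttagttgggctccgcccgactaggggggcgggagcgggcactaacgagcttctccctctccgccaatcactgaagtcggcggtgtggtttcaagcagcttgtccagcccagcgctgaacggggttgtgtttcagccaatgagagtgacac
Irf9, chr14:55603735-55603984, plus strand: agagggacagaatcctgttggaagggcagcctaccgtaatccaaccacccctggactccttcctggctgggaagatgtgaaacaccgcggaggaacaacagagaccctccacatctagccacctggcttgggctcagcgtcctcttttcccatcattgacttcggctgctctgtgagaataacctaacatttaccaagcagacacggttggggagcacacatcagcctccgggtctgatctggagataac

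**Figure D2:**
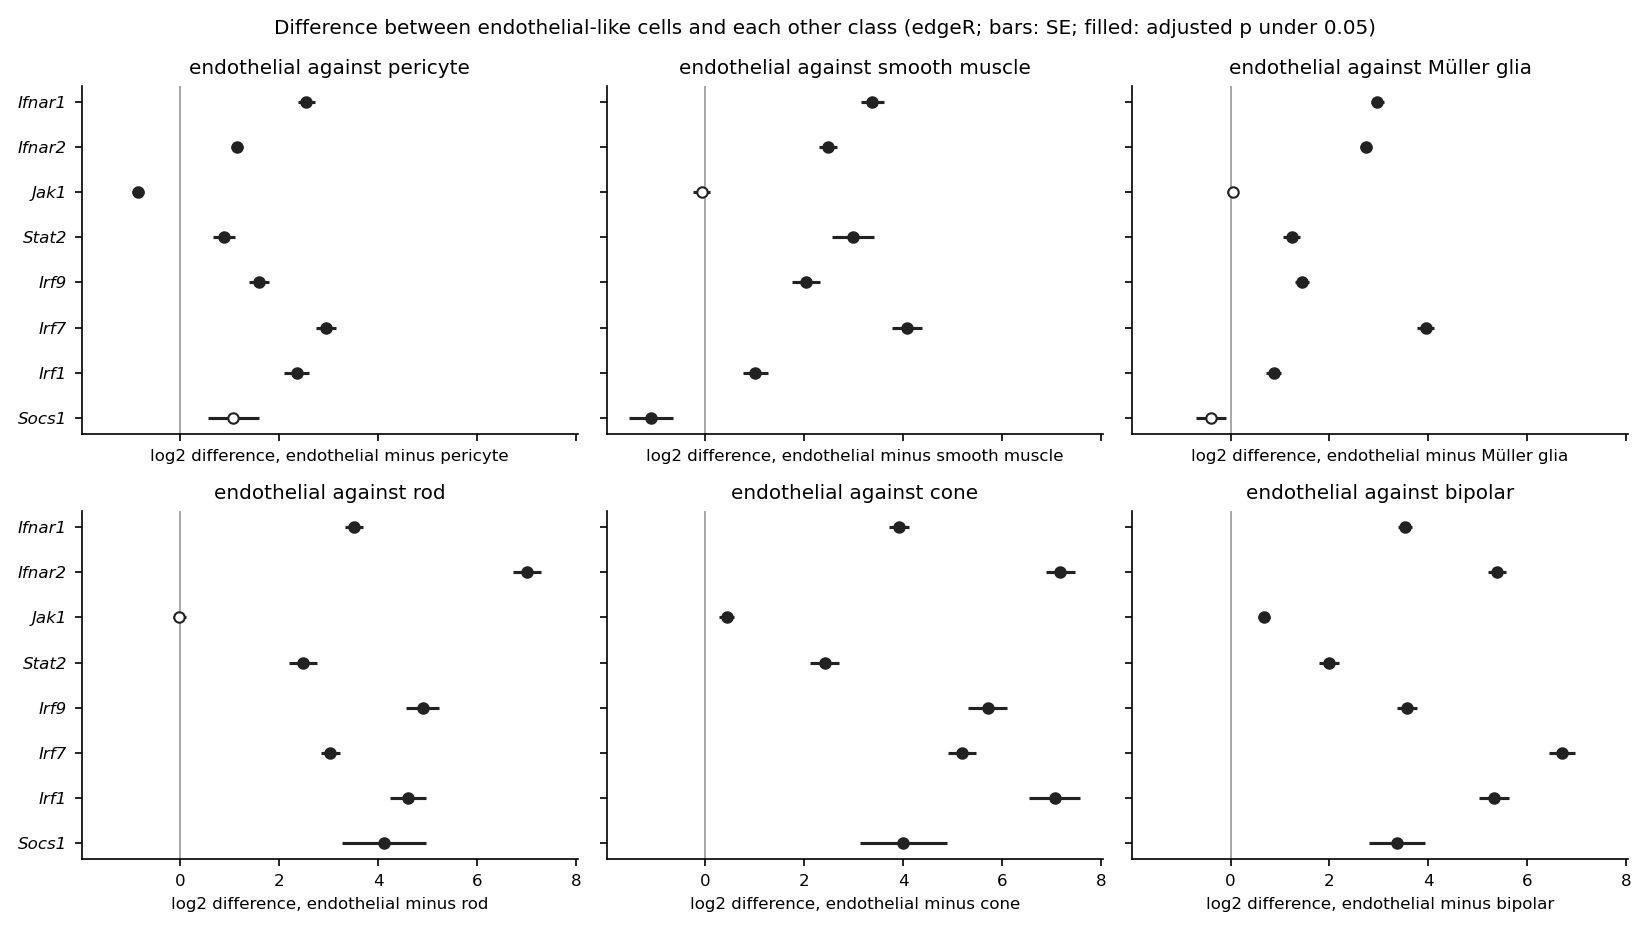
Log2 difference between endothelial cells and each other class (horizontal axis, positive where endothelial cells were higher) for the 8 tested members (vertical axis), from edgeR with bars for the SE; filled points have an adjusted p under 0.05. The 3 open points at or near 0 are Jak1 against smooth muscle, Müller glia and rods, and Socs1 is open against pericytes and Müller glia.

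Irf7 was the member with the largest spread among libraries of 1 class. It was at 119, 130 and 351 CPM in young, adult and old endothelial cells, at 17.0, 21.6 and 48.1 CPM in pericytes and at 29.2, 21.1 and 24.7 CPM in rods. Endothelial cells exceeded pericytes by 2.94 (SE 0.20, edgeR adjusted p = 8.1e-19) and rods by 3.04 (SE 0.20, edgeR adjusted p = 5.7e-20), and the difference between pericytes and rods missed the threshold (0.10, SE 0.34, edgeR adjusted p = 0.84). With classes taken from each cell's own markers the excess over pericytes was 1.79. Müller glia read 8.4, 13.9 and 15.9 CPM, which was 4.53 to 10.7% of the endothelial level in the same library, close to the endothelial marker share there. Smooth muscle, cones and bipolar cells were at or under 16.2 CPM, with 8 UMIs over all bipolar cells.

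Rods were above Müller glia for Irf7 (0.90, SE 0.33, edgeR adjusted p = 0.014), the only member higher in rods than in Müller glia, where 24.2% of all genes were. The rod level was 7.03 to 24.5% of the endothelial level, with endothelial markers at most 0.707% there. Irf7 at chr7:141262706-141266481 (minus strand) meets the gene Phrf1 tail to tail, and the annotations share 45 bases. Phrf1 was at 25.02, 29.2 and 26.4 CPM in rods and at 31.5, 26.8 and 29.1 CPM in bipolar cells, where Irf7 read 2.3, 2.1 and 1.8 CPM. The 250 bases before the Irf7 start are shown because Irf7 had the largest old to young ratio of the members in endothelial cells, and 54.4% of them are G or C.
Irf7, chr7:141266425-141266674, minus strand: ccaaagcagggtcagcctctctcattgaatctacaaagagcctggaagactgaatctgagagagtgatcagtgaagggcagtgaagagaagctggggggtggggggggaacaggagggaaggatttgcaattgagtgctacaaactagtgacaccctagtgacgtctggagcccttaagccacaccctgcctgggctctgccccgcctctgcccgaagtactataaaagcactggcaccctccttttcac

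Irf1 (chr11:53770014-53778374, plus strand) was highest in endothelial cells, followed by Müller glia and smooth muscle. It was at 79.0, 83.4 and 79.7 CPM in endothelial cells, at 40.5, 36.5 and 63.0 CPM in Müller glia and at 26.0, 42.0 and 55.7 CPM in smooth muscle. The endothelial excess was 0.87 over Müller glia (SE 0.15, edgeR adjusted p = 1.1e-06) and 1.01 over smooth muscle (SE 0.25, edgeR adjusted p = 9.7e-04). Both calls were lost when every cell was thinned to 1000 UMIs (0.15, edgeR adjusted p = 0.74, and 0.24, edgeR adjusted p = 0.85). Pericytes, although vessel cells, were lower at 18.4, 14.4 and 20.1 CPM (endothelial minus pericyte 2.35, or 1.45 with classes from each cell's own markers), below smooth muscle by 1.35 (SE 0.39, edgeR adjusted p = 8.8e-03). The neurons held 7 UMIs over all rods, 1 over all cones and 9 over all bipolar cells.

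Socs1 (chr16:10782240-10785536, minus strand) was low everywhere and was the only tested member that passed the test as higher in smooth muscle than in endothelial cells. It was at 16.3, 19.4 and 27.8 CPM in smooth muscle, at 18.0, 11.8 and 10.2 CPM in Müller glia and at 8.0, 10.1 and 10.7 CPM in endothelial cells. The smooth muscle excess of 1.10 (endothelial minus smooth muscle -1.10, SE 0.44, edgeR adjusted p = 0.040) rested on 21 UMIs and was lost without any of the 3 libraries, at adjusted p = 0.098 without young, 0.11 without adult and 0.28 without old. The difference between endothelial cells and Müller glia missed the threshold (-0.40, SE 0.30, edgeR adjusted p = 0.24). Rods, cones and bipolar cells held 1, 1 and 4 UMIs in all.

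**Figure D3:**
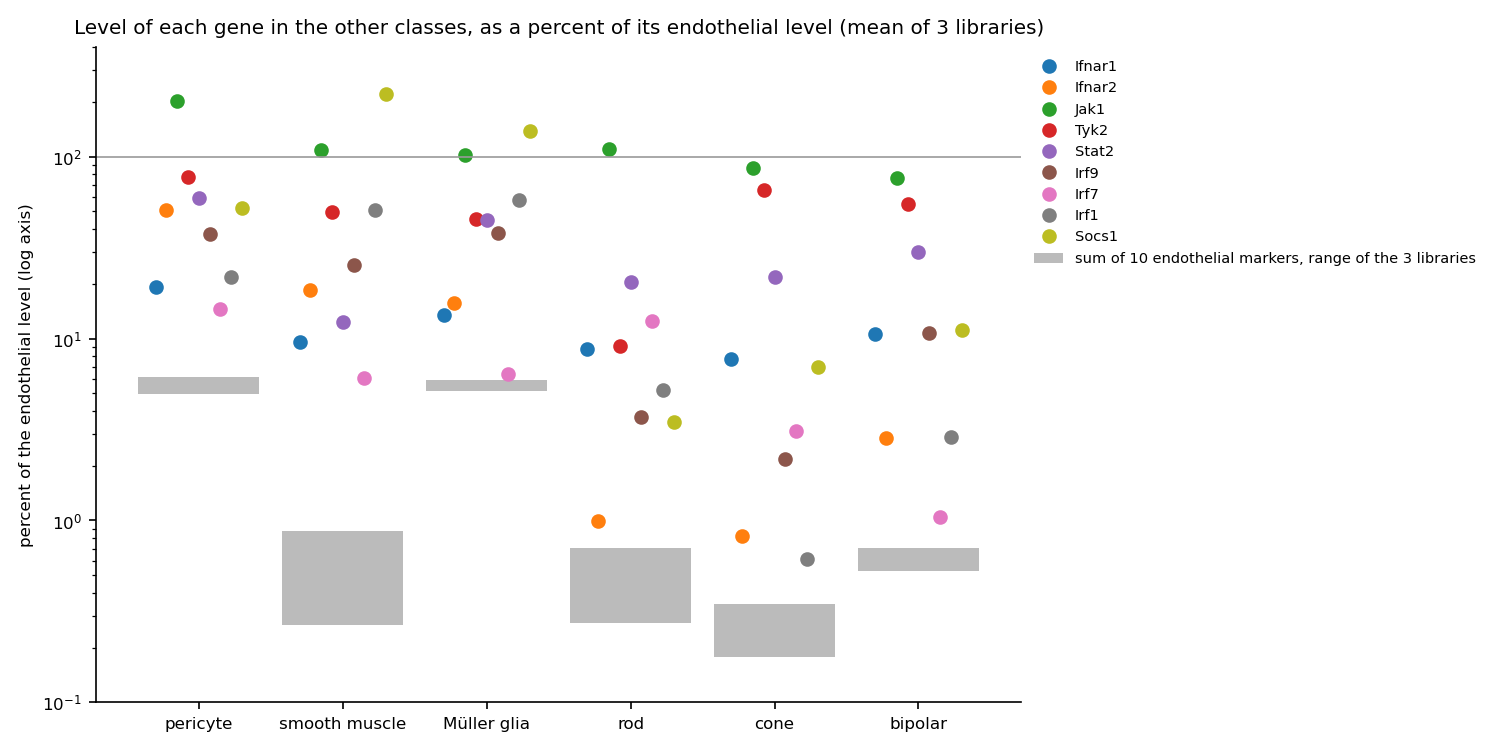
Level of each member in 6 classes (horizontal axis) as a percent of its endothelial level, mean of the 3 libraries, on a log axis, with grey boxes for the range of the summed endothelial markers over the 3 libraries. Jak1 is at 203% in pericytes and between 76.5 and 110% in the other classes, while Ifnar2 is at 1.0% in rods and 0.83% in cones, above the grey boxes, and Irf7 in Müller glia is at 6.4%.

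Read by class, pericytes had Jak1 at 203% and Ifnar2 at 50.7% of the endothelial level (mean of 3 libraries), and Ifnar1 and Irf7 at 19.2% and 14.5%. UMIs of every member were found in pericytes, but Tyk2 rested on 16 UMIs and Socs1 on 9, at 4.0 to 5.7 CPM. Müller glia had Jak1 at 101%, Irf1 at 57.8% and Stat2 and Irf9 at 45.0% and 37.9%, but Ifnar1 and Ifnar2 at 13.4% and 15.7%. Smooth muscle had Jak1 at 108% and Ifnar2 at 18.5%. Pericyte markers in smooth muscle were at 25.6, 27.4 and 13.9% of their pericyte level in young, adult and old, and the part of pericyte RNA in these values was not tested. Cones had Jak1 at 86.5% and Tyk2 at 65.2% with Ifnar2 at 0.83% and Irf9 at 2.2%, and bipolar cells had Ifnar1 at 10.6% and Ifnar2 at 2.8%. Pericytes were above bipolar cells and above cones in 8 of 8 members (33.1% and 32.7% of all genes), and so were Müller glia (34.7% and 34.0%). These counts include Ifnar1, Ifnar2 and Irf7, which in Müller glia lay within or near the range of single endothelial marker shares. The summed markers were at 0.530 to 0.705% of their endothelial level in bipolar cells and 0.179 to 0.348% in cones. The part of endothelial RNA in the counts was not tested. The pericyte counts also include Socs1, on 9 UMIs beside 4 in bipolar cells and 1 in cones. Rods were above cones in 1 of 8 (12.1%).

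In single cells thinned to 1000 UMIs each, so that depth did not set the shares, a UMI of both Ifnar1 and Ifnar2 was found in 4.97, 5.61 and 4.73% of young, adult and old endothelial cells. The exact 95% intervals, which cover counting error only, ran from 2.87 to 8.23%. Either chain was found in 37.0, 36.0 and 38.6% of endothelial cells. Cells with both were 2 of 170, 1 of 124 and 2 of 102 in pericytes, with exact upper limits of 4.19, 4.41 and 6.90%. None was found in the other classes. The exact upper limits there were 1.17 to 2.25% in rods, 1.71 to 2.10% in Müller glia and 1.76 to 2.21% in bipolar cells. They were 3.55 to 5.13% in cones and 9.25 to 9.49% in smooth muscle. So in smooth muscle, in old pericytes, and in young and old cones, a share as high as the endothelial one was not excluded by the number of cells. Shares at this depth count cells with a captured molecule, not cells that express the gene.

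Between ages, the receptor and kinase genes had old to young ratios of 0.93 to 1.01 in endothelial cells, and Irf7 was farthest from 1. In endothelial cells the old to young ratio of Ifnar1 was 0.93 (exact conditional 95% interval 0.83 to 1.03), of Ifnar2 1.00 (0.92 to 1.10), of Jak1 1.00 (0.86 to 1.17), of Tyk2 1.01 (0.64 to 1.59) and of Irf1 1.01 (0.85 to 1.20). The ratio of Irf7 was 2.95 (2.63 to 3.32), of Stat2 1.52 (1.23 to 1.88), of Irf9 1.30 (1.10 to 1.54) and of Socs1 1.34 (0.80 to 2.29). So 2 of the 9 ratios were above 1.5, where 7.18% of 10630 genes were, and none was below its inverse, where 5.5% were. The median log2 ratio of the members was 0.01 beside 0.02 for all genes. Stat2 was close to the limit, at 1.47 to 1.65 over the processing alternatives.

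Adult to young ratios of the members were between 1.01 and 1.26, with none past 1.5 in either direction (5.08% of all genes were above and 3.58% below), and Irf7 was at 1.09 (0.95 to 1.25). Ifnar1 at 1.12 (1.00 to 1.24) was the only member whose interval lay above 1, its lower bound being 1.005. Between old and adult, 1 of 9 was above 1.5 (5.02% of all genes), Irf7 at 2.71 (2.43 to 3.03), with Stat2 at 1.30 (1.07 to 1.58), Irf9 at 1.19 (1.01 to 1.40) and Ifnar1 at 0.83 (0.75 to 0.92). Old endothelial cells were the deepest, with a median of 7553 UMIs per cell beside 5642 in young and 6002 in adult, and the part of depth in these ratios was not tested beyond thinning. After thinning to 1000 UMIs the old to young ratio was 2.14 for Irf7 and 1.65 for Stat2, while Irf9 was at 1.07 and Irf1 at 0.71, each the lowest over the alternatives except for Stat2, where it was the highest. Thinning also moved Ifnar2 to 1.21 and Jak1 to 1.23 between old and young, and to 1.41 and 1.26 between old and adult, with the counting interval of the 1.41 above 1.

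The Irf7 difference was found in both endothelial clusters, whereas Irf1 was at 0.89 (0.73 to 1.07) in the larger and 1.62 (1.06 to 2.55) in the smaller, a difference between clusters that was not tested. For Irf7 the larger, led by Itm2a, Pglyrp1 and Cxcl12, gave an old to young ratio of 3.05 (2.69 to 3.47), and the smaller, led by Gkn3 and Sema3g, genes known from arterial endothelium, gave 2.44 (1.86 to 3.25). Thinned cells with an Irf7 UMI were 13.8% of young, 11.7% of adult and 25.6% of old endothelial cells. Cells with 5 or more Irf7 UMIs, before thinning, were 3.15, 4.44 and 23.3% of them, and the highest single cell held 9, 12 and 32 UMIs.

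**Figure D4:**
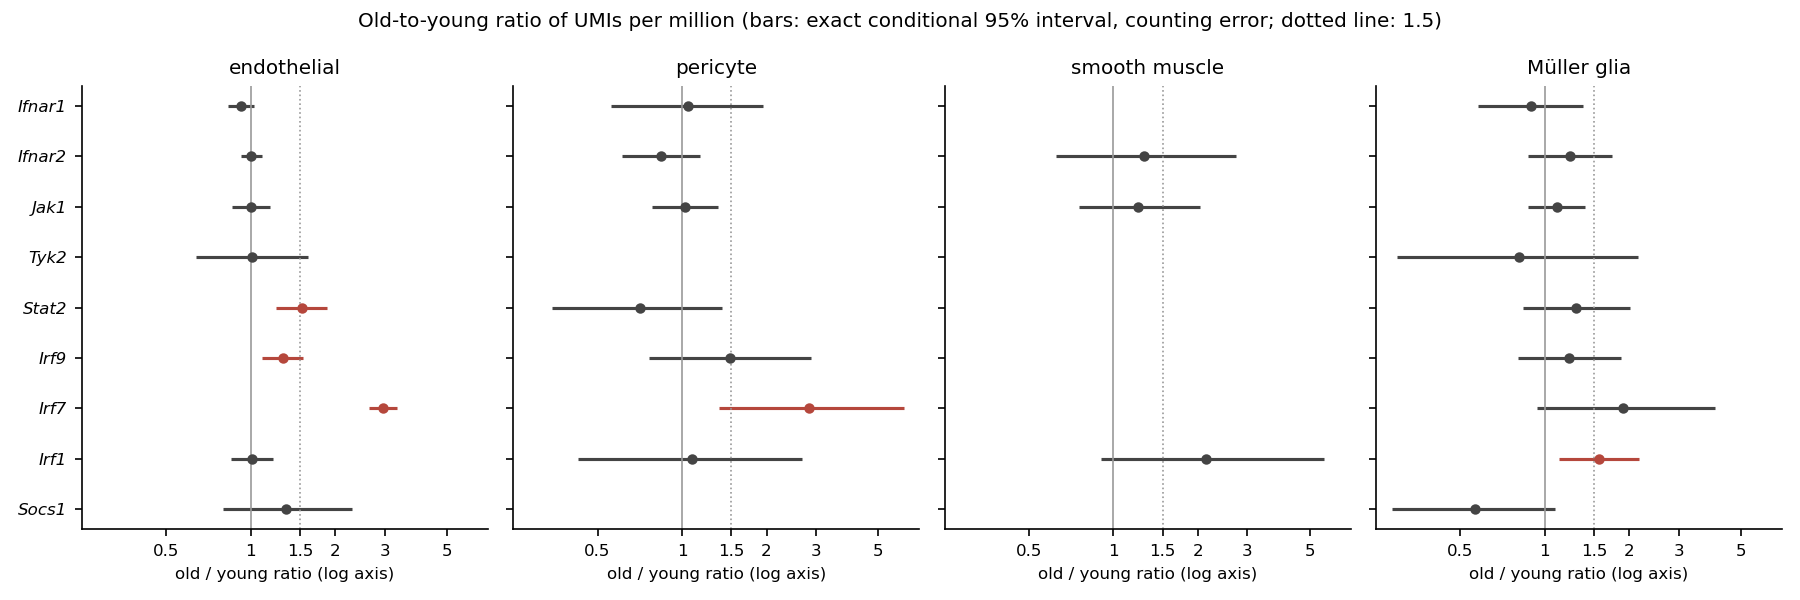
Old to young ratio of CPM (horizontal log axis) for each member (vertical axis) in 4 classes, with bars for the exact conditional 95% interval of counting error, a dotted line at 1.5, and red where the interval does not hold 1; members with under 20 UMIs in the pair are not drawn. Irf7, Stat2 and Irf9 are red in endothelial cells, Irf7 in pericytes and Irf1 in Müller glia.

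Outside the endothelium fewer members had the 20 UMIs required for a ratio. In pericytes 1 of 7 was above 1.5 (13.3% of all genes), Irf7 at 2.83 (1.36 to 6.202) on 12 and 24 UMIs. Pericyte Irf7 was 14.3, 16.6 and 13.7% of the endothelial level in young, adult and old, and the endothelial marker share in pericytes was 4.93, 5.19 and 6.17%, and with that share of the endothelial level subtracted the pericyte ratio was 2.37. In rods 2 members had a ratio and neither was past 1.5 (11.6% of all genes were above and 10.2% below it), with Irf7 at 0.85 (0.38 to 1.89). In cones the only ratio, Jak1 at 1.13, was not above 1.5 (10.4% of all genes were). In bipolar cells 1 of 4 was above (6.94%), Irf9 at 1.72 (0.75 to 4.11).

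In Müller glia 2 of 9 were above 1.5 (8.76% of all genes) and 1 below its inverse (6.89%). Irf1 was at 1.56 (1.12 to 2.17), Irf7 at 1.91 (0.94 to 4.06) and Socs1 at 0.57 (0.29 to 1.08). Müller Irf7 was 7.02, 10.7 and 4.53% of the endothelial level in young, adult and old beside a summed endothelial marker share of 5.91, 5.17 and 5.64%. The old value lay below that share and left nothing after subtraction. The share is a rough guide, since single markers there ranged from 0 to 17.4%. The part of endothelial RNA was not tested, and the Irf7 ratio is not read as a change in Müller glia. The Irf1 value rested on the smaller Müller cluster, with 11 UMIs in 33 young and 42 UMIs in 47 old cells (ratio 3.42, 1.73 to 7.37), while the larger cluster gave 1.10 (0.74 to 1.63). The 42 old UMIs came from 17 cells, with 10 in a single cell, which the counting interval does not take into account. Stat2 in Müller glia was at 1.91 between old and adult (1.21 to 3.06), beside an old to young ratio of 1.30 (0.84 to 2.02). Its old UMIs in the smaller cluster were 17 in 7 cells, with 10 in a single cell. In smooth muscle 1 of 3 was above 1.5 (15.3%), Irf1 at 2.14 (0.90 to 5.62) on 8 and 20 UMIs.

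The rest of the pathway, 47 further genes of known role, was followed in the same way, and 17 of them could be tested between classes. Against pericytes 7 were higher in endothelial cells and 1 lower (23.1% and 19% of all genes), against smooth muscle 7 and 2 (22.1% and 16.5%), and against Müller glia 11 and 1 (34.4% and 35.2%). Against rods 14 were higher and 2 lower (37.0% and 28.1%), against cones 12 and 1 (36.8% and 29.97%), and against bipolar cells 14 and 2 (39.2% and 33.9%). Among the restraints, Usp18, which binds IFNAR2 and displaces JAK1, was at 44.3, 46.3 and 71.2 CPM in endothelial cells and at most 16.7 CPM elsewhere. Socs3, an inhibitor of cytokine receptor kinases, was higher in smooth muscle (208, 288 and 443 CPM) than in endothelial cells (95.9, 129 and 147 CPM) (endothelial minus smooth muscle -1.28, SE 0.14, edgeR adjusted p = 3.7e-11). Ptpn2, a phosphatase of JAK and STAT proteins, was higher in rods (52.1, 72.5 and 59.3 CPM) than in endothelial cells (20.3, 26.7 and 22.3 CPM, endothelial minus rod -1.37, SE 0.19, edgeR adjusted p = 1.1e-08). It was also higher in cones (mean 76.4 CPM, endothelial minus cone -1.48, SE 0.19, edgeR adjusted p = 1.7e-09). The same held for bipolar cells (mean 56.4 CPM, endothelial minus bipolar -0.97, SE 0.17, edgeR adjusted p = 9.6e-07). Of the other STAT genes, Stat5b was highest in bipolar cells (82.1, 84.0 and 67.3 CPM) and Stat6 in pericytes (66.7, 55.8 and 62.2 CPM). The 21 interferon ligand genes were almost without counts in the compared classes, with 2 UMIs of Ifnk and 2 of Ifnz.

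In old over young endothelial cells, 5 of 20 pathway genes with a ratio were above 1.5, where 7.18% of all genes were, and 3 of them are given here. Usp18 was at 1.61 (1.31 to 1.99) and Socs3 at 1.54 (1.33 to 1.77). Stat5a at 2.30 (0.92 to 6.51) rested on 7 and 18 UMIs.

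**Figure D5:**
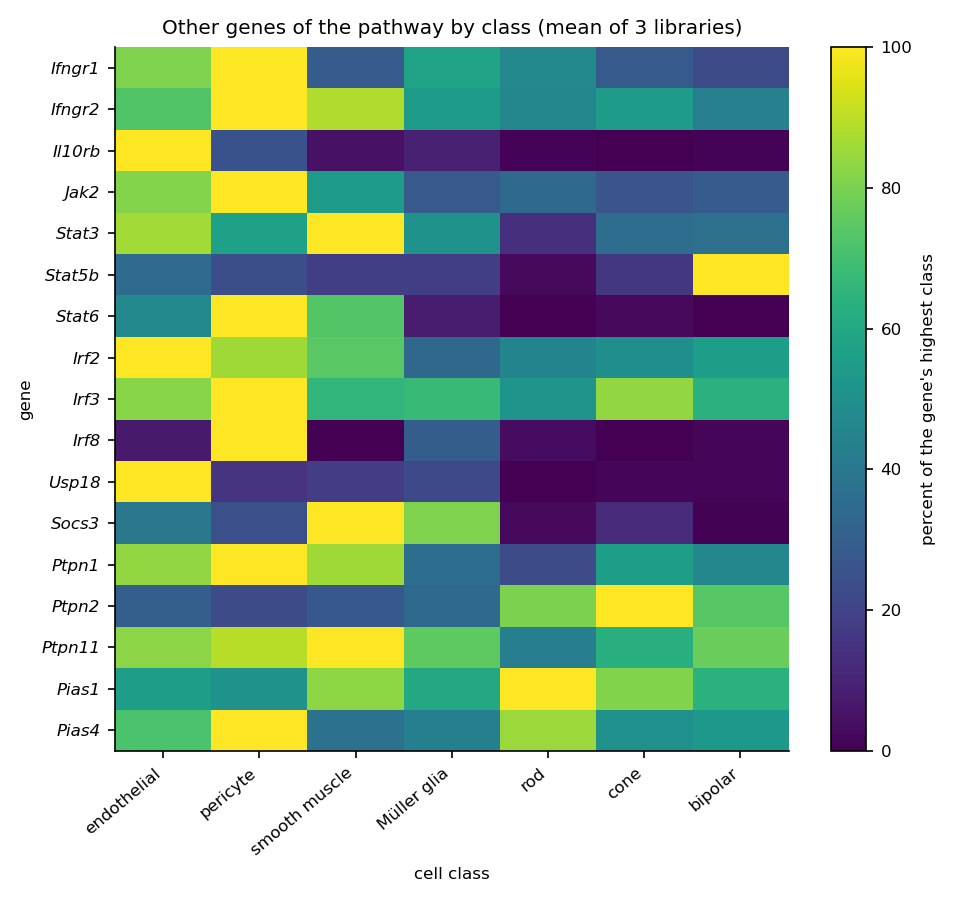
Mean CPM over the 3 libraries of other pathway genes (vertical axis) in 7 classes (horizontal axis), as a percent of the class where each gene is highest (colour). Il10rb, Irf2 and Usp18 are highest in endothelial cells, Stat6 in pericytes and Stat5b in bipolar cells.

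The pattern over the 21 class and library sums placed the members beside different genes. Among 9698 genes, those most like Ifnar1 were the endothelial genes Vwa1, Mmrn2 and Itm2a (Pearson r 0.97, 0.97 and 0.96), and those most like Ifnar2 were Rhob, Il17rd and Wasf2 (0.97, 0.96 and 0.96). Irf7 was most like Tapbp, which loads peptide on MHC class I, with Arl4a and Sh3glb1 (0.93, 0.91 and 0.91), and Irf9 most like Tpm3, Nmi and F11r (0.95, 0.95 and 0.94). Irf1 was most like Trim12a and the immediate-early genes Ier2 and Zfp36 (0.96, 0.95 and 0.95), and Socs1 most like Prkcd, Junb and Arid5a (0.95, 0.93 and 0.92). Jak1 was most like Adcyap1r1, Angptl2 and Anpep (0.87, 0.86 and 0.85), Stat2 most like Slco1c1, Dhx40 and Pdia3 (0.90, 0.87 and 0.87), and Tyk2 most like Nfkb1, Tle3 and Cep68 (0.91, 0.88 and 0.85). These sums share libraries and differ in depth, so the correlations are descriptions. Among the members themselves, Ifnar2 and Irf9 were most alike (0.90), and Jak1 was at or under 0.50 with every other member.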

How the data were processed

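The authors deposited raw UMI counts per gene and barcode for each library (whole numbers, not normalized). Per the labels, reads were processed with Cell Ranger 6.1.2 against mm10; the annotation is not given in the sources used here. Cells with 500 to 6000 genes and 1 to 20% mitochondrial UMIs were kept, and scanpy's doublet caller marked 8, 17 and 12 cells (0.467 to 0.861%), so mixed clusters were found from markers instead. Cells were clustered with Seurat 5.3.0 (2000 features, 30 components, resolution 0.5) into 22 clusters, with 413 genes held out, the members and their pathway among them. Clusters with at least 50% of the markers of 2 classes were not compared, except that smooth muscle markers decided over pericyte ones: the smooth muscle cluster also held 4 of 8 pericyte markers. A shallow cluster (median 2109 UMIs) with none of its class's markers among its 10 leading genes was not compared, whereas the rod cluster (2292 UMIs), led by rod markers, was. UMIs were summed per class and library and tested with edgeR 4.0.16 on 7 classes and 21 contrasts (12 residual degrees of freedom). The 3 libraries stood as replicates of a class, so p-values cover the spread between these libraries, in which age is blocked. Levels are UMIs per 1000000 UMIs of the class (CPM). Age ratios have exact conditional intervals for counting error; a ratio was called past 1.5 with at least 20 UMIs. The 9 members, their pathway lists and the markers were chosen with earlier results of these data known. All 9 members were named, pathway genes where called or past 1.5 in endothelial cells, and the 3 most alike genes for each member; some pathway genes are not reported here. Positions are from GENCODE vM21, promoter sequences, found for all 9 members, from RefSeq (GRCm38.p6). The edgeR step was tested on simulated data. DESeq2 1.42.0, other normalizations, filters, thinning and class rules were tried as alternatives.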

Additional observations from a re-analysis of the deposited data

Results flagged for a closer look

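Groups of cells outside the 7 compared classes, because they were too few, mixed or unnamed, also held old to young ratios whose counting interval lay above 1, and these are given as values with no test. Irf7 was 2.64 times higher in the old library in the cluster group with both endothelial and pericyte markers (2.36 to 2.96), 3.06 times in the group with endothelial and erythroid markers (2.04 to 4.66) and 1.83 times in the unnamed shallow cluster (1.16 to 2.97). In B cell-like cells Irf7 had 24 UMIs in old against 0 in 10 young cells. The ratio was 1.46 with 3 counts put in place of the 0, which is not a lower limit. The exact conditional interval of the 2 counts as read had a lower limit of 1.10. The exact upper limit of the young level was 82.1 CPM beside 97.5 CPM in old. In the endothelial and pericyte group Irf9 was at 1.23 (1.03 to 1.46) and Socs1 at 1.52 (1.02 to 2.27). Jak1 in amacrine-like cells was at 2.59 (1.22 to 6.12). Every member was read in each of these groups, and the intervals were not adjusted for their number.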

How the results depend on the processing

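No paired analysis was possible because each age has a single library, so the ages share only 1 replicate number; the library block of the class fit is part of the main design. No called difference between endothelial cells and another class reversed under any alternative run; single differences between the other classes were computed in the main fit alone. Subtracting endothelial RNA from the other classes moved the Müller glia Irf7 ratio of adult to young from 1.66 to 5.46. Thinning every cell to 1000 UMIs left 5 members higher in endothelial cells than in cones, 5 than in bipolar cells and 73 calls over all 21 contrasts, instead of 8, 8 and 120, and Stat2 and Socs1 then no longer passed the filter on low counts. Leaving out 1 library at a time gave 6 members higher than in pericytes and in smooth muscle, 6 to 7 than in Müller glia, 7 to 8 than in rods, 7 to 8 than in cones and 8 to 9 than in bipolar cells, and 113 to 117 calls in all, and Tyk2 passed the filter in some of these fits. In old over young endothelial cells the count past 1.5 was 1 instead of 2 with scaling by TMM factors, without cells that carry markers of another class, with classes from each cell's own markers and with doublets kept, since Stat2 moved across 1.5. Between old and adult it was 2 instead of 1 with classes from each cell's own markers. The median log2 old to young ratio of the members was 0.27 after thinning, beside 0.01. The share of endothelial cells with an Irf7 UMI was 43.6, 50.9 and 75.4% in young, adult and old without thinning. Single calls lost were Jak1 against cones with stricter cell limits (edgeR adjusted p = 0.18) and after thinning (edgeR adjusted p = 0.41), Jak1 against bipolar cells after thinning (edgeR adjusted p = 0.061), and Socs1 against smooth muscle with no filter on low counts (edgeR adjusted p = 0.077) and with classes from each cell's own markers (edgeR adjusted p = 0.14). The cause was not tested. Relative log expression (RLE) normalization in place of TMM shifted the median log2 difference of all genes by -0.14 between endothelial cells and smooth muscle. Between endothelial and bipolar cells the shift was -0.11.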

Other observations

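The unnamed shallow cluster of 228 cells carried 10 of 10 endothelial markers, with a median of 2109 UMIs per cell, and was led by Hmcn1, Plk2 and Ccdc141. Ifnar1 was at 416, 341 and 380 CPM in its young, adult and old cells, above the 205, 229 and 190 CPM of endothelial cells. It held 1.96 Ifnar1 UMIs for each Ifnar2 UMI, beside 0.689 in the larger endothelial cluster. Among the few immune cells, B cell-like cells had Jak1 at 222 CPM and Ifnar2 at 34.6 CPM over all libraries, with 12 Stat2 UMIs, and Irf7 at 28.5 and 97.5 CPM in adult and old beside 0 of 44954 UMIs in 10 young cells (exact 95% upper limit 82.1 CPM). Over all libraries the cluster that mixed T or NK cell and macrophage markers had Jak1 at 280 CPM and Ifnar2 at 125 CPM with 7 Stat2 UMIs, and its Irf7 level was 67.9 CPM in adult (39.6 to 109) and 161 CPM in old (95.4 to 254) beside 0 of 70423 UMIs in 9 young cells, where the exact 95% upper limit of 52.4 CPM lay above the lower limit in adult.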
